A study of Homo sapiens with 4 samples.

Results

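A small class of A375 melanoma cells was singled out in the culture resistant to vemurafenib plus cobimetinib by the RNA of 6 genes, SERPINB3, OGN, PDGFRA, LRRC15, IDO1 and RCAN2. A375 is an established human melanoma cell line that carries an activating BRAF mutation. Cultures of 4 kinds were profiled by droplet single-cell RNA sequencing, with 1 library each: untreated, drug-sensitive cells (S), cells resistant to the BRAF inhibitor vemurafenib (RV), and cells resistant to vemurafenib combined with the MEK1/2 inhibitor cobimetinib (RVC) or trametinib (RVT). The 3 resistant cultures had been kept for 10 to 14 days under inhibitor at a fixed fraction of its IC50, the drugs were withdrawn 24 h before capture, and S had none. All 4 came from the same line, 10000 cells were loaded per library, and no second library of any condition was measured, so the values describe these libraries and carry no replicate error.

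Barcodes were kept as cells when they had 500 or more genes and no more than 20% mitochondrial UMIs, where a UMI (unique molecular identifier) tags 1 captured RNA molecule. This left 8307 cells in RVC and 28640 in the 4 libraries. The subset was the RVC cells with 3 or more UMIs over the 6 genes together, 341 cells or 4.10% of RVC (exact binomial 95% interval 3.69 to 4.55%). It was set against the rest, the 5527 RVC cells with 0 UMIs of these genes, and the 2439 cells in between, 1797 with 1 UMI and 642 with 2, stayed outside both classes. The choice used the measured RNA of the 6 genes, so their own levels are a description with no test, while the other genes did not enter it. Levels are counts per 1000000 UMIs of a class (CPM), and all intervals are exact 95% intervals that cover counting error only.

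SERPINB3 is an intracellular inhibitor of proteases known from squamous epithelium. OGN (osteoglycin) is a small leucine-rich proteoglycan of connective tissue, PDGFRA is a receptor tyrosine kinase for platelet-derived growth factor, and LRRC15 is a leucine-rich membrane protein known from fibroblasts of tumors. IDO1 starts the breakdown of tryptophan to kynurenine, and RCAN2 belongs to the regulators of calcineurin. Connective-tissue cells are usually recognized by collagens, fibronectin, decorin, lumican and THY1, which were read beside the 6 genes. UTS2 and NTS encode the secreted peptides urotensin 2 and neurotensin, and MMP1 and MMP3 encode secreted proteases that cleave collagens and other matrix proteins.

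Each of the 6 genes was highest in RVC, but they were chosen with earlier results of these data known, so this is a description. The tables of S and RV list 33694 genes and those of RVC and RVT 33538, so levels across these pairs were counted on different gene sets. RCAN2 (chr6:46220736-46491972 in GRCh38, minus strand) reached 21.8 CPM in RVC against 0.0944 in S, 0.104 in RVT and 0 UMIs in RV. LRRC15 (chr3:194355247-194369743, minus strand) stood at 24.2 in RVC, with 1 UMI in S, 1 in RVT and 0 in RV. OGN (chr9:92383967-92404696, minus strand) was at 20.2 in RVC and 0.139 in RVT, with 0 UMIs in S and RV. IDO1 (chr8:39902275-39928444, plus strand) was at 22.4 in RVC and 1.56 in RVT, with 0 UMIs in S and RV. PDGFRA (chr4:54229097-54298247, plus strand) was at 19.8 in RVC, 1.39 in RVT, 0.330 in S and 0.163 in RV. SERPINB3 (chr18:63655197-63661963, minus strand) was the least abundant, at 7.67 in RVC, 1.01 in RVT and 0.0362 in RV, with 0 UMIs in S. Its near-identical neighbor SERPINB4 had 13.8 CPM in the subset and 1.65 in the rest, and reads of the pair may have been split between them, so the SERPINB3 values are uncertain.

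**Figure D1:**
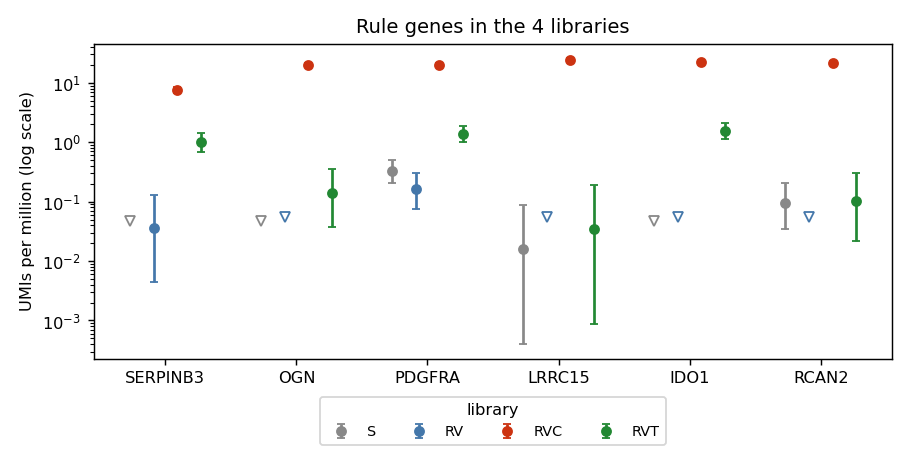
Level of each of the 6 genes that define the subset (x axis) in the S, RV, RVC and RVT libraries, in CPM on a log scale with exact 95% Poisson intervals; open triangles mark the level that 3 UMIs would give in a library with 0 UMIs. Every gene was highest in RVC, and RVT was clear of S and RV for SERPINB3, PDGFRA and IDO1.

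The same rule found 0 of 6693 cells in S (exact upper bound 0.0551%), 0 of 4327 in RV (upper bound 0.0852%) and 1 of 9313 in RVT. At least 1 UMI of the 6 genes was seen in 33.5% of RVC cells, 1.25% of RVT cells, 0.403% of S cells and 0.254% of RV cells. Apart from that 1 cell the rule thus found cells in RVC only, and the comparison could not be repeated in another library. S and RV were the deeper libraries, with medians of 8911 and 11648 UMIs per cell against 4099 in RVC and 2951 in RVT. Cell barcodes that RVC shared with another library numbered 70 for S, 46 for RV and 124 for RVT, and of the 341 subset barcodes 3, 2 and 6 were shared.

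Of the 341 cells, 220 had exactly 3 UMIs, 74 had 4 and 47 had 5 or more, with 4 cells at the highest value of 11. UMIs of a single gene made up the count in 31 cells, 2 genes contributed in 158, 3 in 133, 4 in 15 and 5 in 4, and no cell held all 6, which the 220, 74 and 25 cells with 3, 4 and 5 UMIs could not have done. RCAN2 gave 19.4% of these UMIs, LRRC15 18.8%, IDO1 18.8%, PDGFRA 18.1%, OGN 14.3% and SERPINB3 10.6%. Cells just inside the threshold, at 3 UMIs, had a median depth of 4698.5 UMIs, and those just outside, at 2 UMIs, of 4590. Depth moved with the choice: the median was 5006 UMIs and 1464 genes in subset cells against 3857 UMIs and 1199 genes in the rest, and the share of cells in the subset went from 1.44% in the shallowest of 5 equal depth groups of RVC to 6.68% in the deepest, while the 6 genes went from 161 CPM in the shallowest group to 87.1 in the deepest. When the rest was cut to the 1023 cells nearest in depth, 39 genes were at least 2-fold higher and 13 lower. With every cell thinned to 1500 UMIs and chosen anew, 40 cells made up the subset, and 563 genes were higher and 44 lower. In those 40 cells 50 CPM is about 3 UMIs, so a gene could be called higher on that few. For genes given by the share of cells with a UMI that share is also given after the same thinning, with the classes as chosen on all UMIs. The barcodes with the highest doublet scores took 9.38% of the subset and 5.14% of the rest, and without them 41 genes were higher and 13 lower.

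When 5 of the genes chose the cells, the gene left out was higher in the chosen cells than in cells with 0 UMIs of the other 5. SERPINB3 stood at 15.3 CPM in 279 cells so chosen against 4.09 in 5611 others, a ratio of 3.75 (2.29 to 5.91). RCAN2 had a ratio of 3.32 (2.50 to 4.34) and LRRC15 of 2.98 (2.29 to 3.83). OGN was at 2.22 (1.62 to 2.99), IDO1 at 2.15 (1.60 to 2.85) and PDGFRA lowest at 1.84 (1.29 to 2.56). All 6 ratios had intervals above 1, but the genes were picked together on this library, so this describes them and is no independent support. Among the 15 nearest neighbors of a subset cell, found on variable genes without the 6, 10.2% were subset cells, against 4.10% of all RVC cells and 2.95% around cells of the rest, and 87 subset cells had no subset neighbor. After thinning to 1500 UMIs the values were 4.68% around subset cells, 3.002% around cells of the rest and 4.29% of all cells, and 169 of 339 subset cells, 49.9%, had no subset neighbor.

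Among 1840 other genes with at least 50 CPM in the subset or the rest, 34 were at least 2-fold higher in the subset (1.85% of the genes) and 11 at least 2-fold lower (0.598%). Of these, 15 of the 34 were under 50 CPM in the rest and 7 of the 11 under it in the subset, so they passed the minimum only through the class where they were high, and 19 and 4 reached it in both. The median log2 ratio of all 1840 was 0.03, and 1386 of them, 75.3%, lay within 1.25-fold. The higher genes at the minimum in both classes included MMP3, MMP1, UTS2, DKK1 and NTS, while SPINK6 reached it in the subset alone. The lower genes that reached it in both were C15orf48, NCAPD2, AKR1B1 and S100A2. FN1, SAA1, FABP6, INHBA and CCL2 were also lower but reached it in the rest alone. Higher genes made up 75.6% of the calls, and 61.8% (21 higher and 13 lower) when the 2 classes were scaled by TMM or RLE factors. Ribosomal proteins took a median of 33.3% of the UMIs of a subset cell and 37.8% in the rest, while mitochondrial RNA took 3.62% and 3.52%. Without ribosomal and mitochondrial genes in the totals more genes passed the minimum, 2873 against 1840. Of these 36 were higher and 24 lower, so higher genes made up 60% of the calls. These counts are over a wider set of genes than the others.

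UTS2 (chr1:7843083-7853512, minus strand), the precursor of urotensin 2, was the most abundant of the higher genes. Its level in single subset cells ran from 161 to 114583 CPM with a median of 12536, and in the rest from 0 to 126796 with a median of 2502. The 2 classes overlapped widely: 889 cells of the rest, 16.1%, lay above the subset median, and 23 subset cells, 6.74%, lay below the median of the rest. As a class the subset stood at 15376 CPM and the rest at 5533, a ratio of 2.78 (2.74 to 2.81). At 1500 UMIs per cell UTS2 was seen in 99.7% of 339 subset cells and 80.0% of 5190 cells of the rest (100% and 93.1% unthinned). UTS2 was also a gene of the whole culture, at 7752 CPM over all RVC cells against 0.173 in S, 0.217 in RV and 1.63 in RVT.

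**Figure D2:**
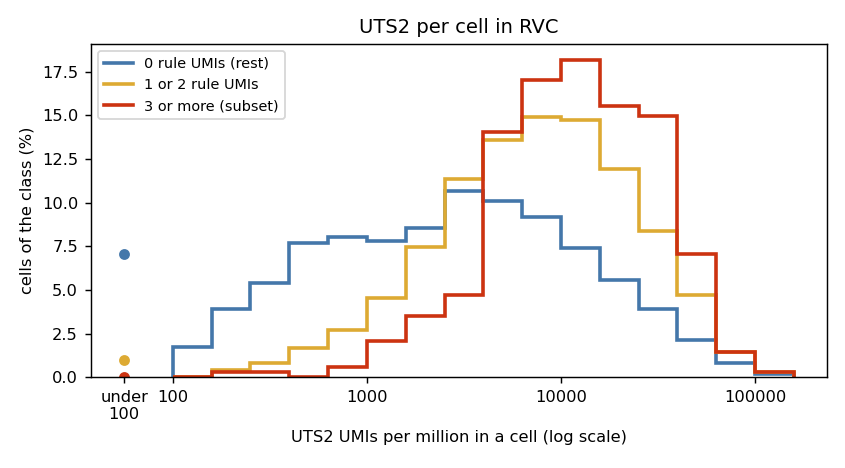
Share of cells (y axis, % of each class) by their UTS2 level (x axis, CPM on a log scale, cells under 100 as points at the left) for RVC cells with 0, 1 or 2, and 3 or more UMIs of the 6 genes. The subset, with a median of 12536, sits to the right of the rest, with a median of 2502, and the curves overlap.

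NTS (chr12:85874295-85882992, plus strand), which encodes neurotensin, was at 1328 CPM in the subset and 493 in the rest, a ratio of 2.69 (2.58 to 2.81). Single cells ran from 0 to 24390 in the subset with a median of 663, and from 0 to 61527 in the rest with a median of 114. A single cell held 11.0% of the NTS UMIs of the subset, and without that cell the ratio was 2.41 (2.30 to 2.52). NTS was seen in 59.9% of thinned subset cells and 32.4% of the rest (83.9% and 51.2% unthinned).

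MMP1 and MMP3 lie side by side on chromosome 11 (102789920-102798160 and 102835801-102843803, both minus strand). MMP1, interstitial collagenase, was at 2743 CPM in the subset and 779 in the rest, a ratio of 3.52 (3.41 to 3.63). Its level in single cells ran from 0 to 46327 in the subset with a median of 1451, and from 0 to 49246 in the rest with a median of 250. MMP3, stromelysin 1, was at 761 and 176, a ratio of 4.31 (4.06 to 4.58). The median subset cell held 91.8 CPM of MMP3 and the median cell of the rest 0, with highest values of 66276 and 32463. A single cell held 10.2% of the MMP3 UMIs of the subset, and without that cell the subset stood at 684 CPM, a ratio of 3.88 (3.64 to 4.13). Thinned cells with an MMP1 UMI made up 75.8% of the subset and 41.7% of the rest (89.7% and 62.7% unthinned), and those with MMP3 33.6% and 12.1% (50.4% and 21.6%). As with UTS2, the ranges of the 2 classes overlapped, while the lower quartile was 375 against 0 for MMP1 and 6178 against 605 for UTS2, and 0 in both for MMP3.

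RNA outside intact cells could add UMIs to any cell. The RVC barcodes under 500 genes, 903 in number, held the 6 genes at 132 CPM (106 to 162) against 116 in RVC cells. They held UTS2 at 6438, NTS at 741, MMP1 at 1738 and MMP3 at 664, against 7752, 679, 1153 and 279 over all RVC cells, so these RNAs were also present in the poorest barcodes. The subset levels of UTS2, NTS and MMP1 were above those values and MMP3 was nearer, at 761 (723 to 802), or 684 (647 to 723) without its highest cell, against 664 (604 to 728). A culture of 1 line offers no cells known to be free of these RNAs, so the free level could not be read directly, and its part in the result was not tested.

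The levels were graded across the threshold and showed no step at 3 UMIs. In cells with 0, 1, 2, 3, 4 and 5 or more UMIs of the 6 genes UTS2 was at 5533, 10225, 12957, 14344, 15476 and 19439 CPM. MMP1 was at 779, 1512, 2010, 2331, 2442 and 4892, and MMP3 at 176, 366, 520, 609, 920 and 1140. NTS was at 493, 894, 1090, 1144, 911 and 2728, a dip at 4 UMIs. FN1 ran the other way, at 120, 44.0, 24.7, 25.9, 22.7 and 10.6, with its main drop between 0 and 1 UMI. The 642 cells just outside, at 2 UMIs, thus differed from the 220 just inside by less than either differed from cells with 0 UMIs, in all 5 of these genes.

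**Figure D3:**
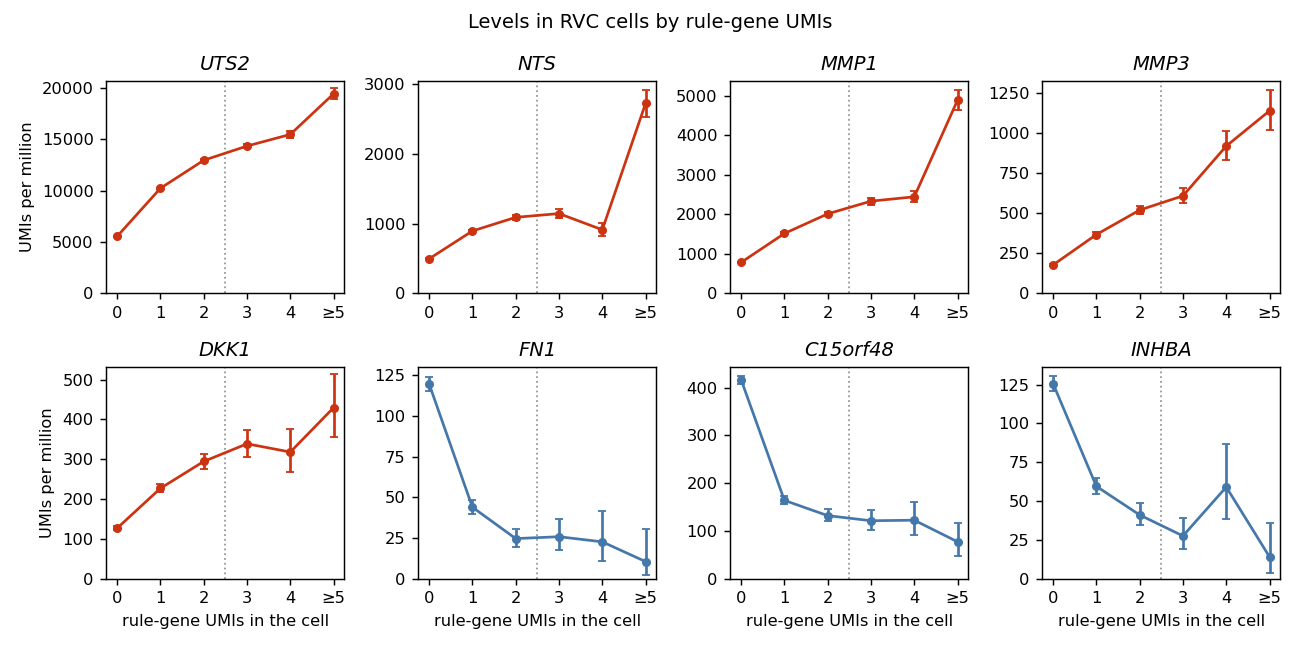
Class level in CPM (y axis, from 0, with exact 95% Poisson intervals) of 8 genes in RVC cells grouped by their UMIs of the 6 defining genes (x axis), with a dotted line at the subset threshold. UTS2 climbed from 5533 to 19439 and FN1 dropped from 120 to 10.6 across the groups, with no break at the line.

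The windows shown are those of UTS2, NTS, SPINK6 and the defining genes that held one of the motifs named here, and the other windows that were read are not printed. Each window runs from 250 bases before to 50 bases after a RefSeq start in GRCh38.p14, read 5′ to 3′ on the gene's strand, and 25 of the 34 higher genes and 5 of the 6 defining genes were matched in the RefSeq table. MMP1, MMP3 and IDO1 were among the genes not matched, so their windows were not searched. Capitals mark TGANTCA, and TGACATCA or its reverse complement TGATGTCA, which was picked after the windows were read. TGANTCA includes the site of AP-1 (dimers of the FOS and JUN families), where N is C or G. The marked letters of SPINK6 and PDGFRA are TGAATCA, which is outside that site. TGANTCA reads the same on both strands, and the motifs did not overlap in these windows.
UTS2 chr1:7853016-7853315 minus strand: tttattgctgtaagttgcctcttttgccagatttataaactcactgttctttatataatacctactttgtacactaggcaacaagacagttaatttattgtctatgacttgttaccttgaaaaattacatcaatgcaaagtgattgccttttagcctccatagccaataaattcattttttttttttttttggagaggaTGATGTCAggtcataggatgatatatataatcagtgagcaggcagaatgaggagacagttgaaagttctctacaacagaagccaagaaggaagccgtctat
NTS chr12:85874045-85874344 plus strand: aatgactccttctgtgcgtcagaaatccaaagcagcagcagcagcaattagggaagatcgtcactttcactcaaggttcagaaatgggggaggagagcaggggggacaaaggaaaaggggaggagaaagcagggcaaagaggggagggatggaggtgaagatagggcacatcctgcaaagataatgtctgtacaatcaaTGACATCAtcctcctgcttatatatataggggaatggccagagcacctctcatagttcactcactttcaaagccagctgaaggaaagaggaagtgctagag
SPINK6 chr5:148202528-148202827 plus strand: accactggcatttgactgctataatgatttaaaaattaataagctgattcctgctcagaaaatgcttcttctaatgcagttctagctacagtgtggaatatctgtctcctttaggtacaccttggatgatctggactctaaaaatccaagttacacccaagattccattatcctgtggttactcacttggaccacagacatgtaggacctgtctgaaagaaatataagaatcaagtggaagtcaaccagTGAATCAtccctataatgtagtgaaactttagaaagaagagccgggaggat
LRRC15 chr3:194369694-194369993 minus strand: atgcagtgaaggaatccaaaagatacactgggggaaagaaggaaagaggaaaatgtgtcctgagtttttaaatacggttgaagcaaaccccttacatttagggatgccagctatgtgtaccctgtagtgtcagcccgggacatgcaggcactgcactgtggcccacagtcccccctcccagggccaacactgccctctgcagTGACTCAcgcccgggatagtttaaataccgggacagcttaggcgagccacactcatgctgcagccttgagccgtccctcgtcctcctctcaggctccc
PDGFRA chr4:54229043-54229342 plus strand: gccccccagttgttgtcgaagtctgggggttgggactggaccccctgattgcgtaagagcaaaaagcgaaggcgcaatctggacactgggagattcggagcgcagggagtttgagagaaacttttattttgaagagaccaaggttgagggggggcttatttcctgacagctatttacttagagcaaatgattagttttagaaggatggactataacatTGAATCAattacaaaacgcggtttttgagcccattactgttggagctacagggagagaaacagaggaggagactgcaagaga
RCAN2 chr6:46325602-46325901 minus strand: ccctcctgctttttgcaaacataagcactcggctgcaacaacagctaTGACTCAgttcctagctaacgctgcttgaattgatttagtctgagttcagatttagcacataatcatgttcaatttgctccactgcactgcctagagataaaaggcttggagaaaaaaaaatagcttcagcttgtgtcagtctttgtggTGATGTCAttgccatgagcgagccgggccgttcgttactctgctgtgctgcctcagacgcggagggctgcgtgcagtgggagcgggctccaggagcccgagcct
The UTS2 and NTS windows both held the 8 letters starting 51 bases before the start, as TGATGTCA in UTS2 and as TGACATCA in NTS, and since they were picked from these windows their presence there was fixed by the choice. A second UTS2 start had neither motif. On either strand TGACATCA was found in 4 of the 25 matched higher genes (UTS2, NTS, ANGPTL2 and PRSS23), or 16%. With UTS2 and NTS fixed by the choice, only ANGPTL2 and PRSS23 were free to differ. That 16% thus cannot be set against the share of all genes of the table, 3.18%. TGACATCA was in 1 of the 8 matched lower genes (INHBA), or 12.5%. The letters TGANTCA were found in 3 of the 5 matched defining genes (LRRC15, PDGFRA and RCAN2) and in 4 of the 25 higher genes (SPINK6, LINC02265, PART1 and APP), or 16.0% of these genes beside 9.37% of all genes of the table. Among the 11 lower genes 8 were matched, and 2 of these (IL11 and S100A2), or 25%, held it. OGN, SERPINB3, DKK1 and FN1 held neither in any window. These matches are letters in a window and say nothing of binding.

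SPINK6 (chr5:148202794-148215137), a Kazal-type inhibitor of skin kallikreins, had the largest ratio of the genes with at least 50 CPM in either class, 5.23 (4.40 to 6.19), at 104 CPM in the subset and 19.9 in the rest. A SPINK6 UMI was seen in 9.73% of thinned subset cells against 2.56% of the rest (22.9% and 4.65% unthinned). With cells thinned and chosen anew its log2 ratio was 1.72, against 2.39 with all UMIs. DKK1, a secreted Wnt antagonist, was at 348 and 127, a ratio of 2.74 (2.51 to 2.98), in 37.5% and 16.1% of thinned cells (66.0% and 30.1% unthinned). HS3ST1, which sulfates heparan sulfate chains, was at 91.3 and 28.8, a ratio of 3.17 (2.66 to 3.75). All of these were rarer in the other libraries, DKK1 the least so with 88.5 CPM in RV.

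SUCNR1, the receptor for succinate, was at 434 CPM in the subset and 195 in the rest, a ratio of 2.23 (2.06 to 2.40), and had 0 UMIs in S, RV and RVT. HES1, a transcriptional repressor of the Notch pathway, was at 250 and 112, a ratio of 2.22 (2.01 to 2.45). S held more HES1, at 416, than the subset. SLC12A8, of the cation-chloride cotransporter family, had a ratio of 2.29 (2.01 to 2.61). Its log2 ratio was -0.63 with cells thinned and chosen anew, in 40 subset cells. Counts under 3 UMIs were raised to 3 there, which lifts the subset and could not make the value negative. At so few UMIs that value does not settle its direction. The neuronal genes GAP43 of growth cones and MAP1A of microtubules had ratios of 2.46 (1.98 to 3.02) and 2.37 (1.93 to 2.90). The noncoding RNAs were LINC02265 at 145 against 35.6, a ratio of 4.07 (3.54 to 4.68) and a log2 ratio of 1.07 after that thinning, PART1 at 2.37 (2.02 to 2.76) and TMEM132D-AS1 at 2.35 (1.89 to 2.89), whose reads may be shared with TMEM132D if strand was not used in counting.

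Of the lower genes FN1 (chr2:215360440-215436172, minus strand), which encodes fibronectin, was at 22.8 CPM in the subset and 120 in the rest, 5.25-fold lower (3.89 to 7.27). It was seen in 2.95% of thinned subset cells and 12.0% of the rest (7.62% and 23.2% unthinned), and at this depth a cell with 0 UMIs may still have expressed it. INHBA, the activin A subunit, was at 32.9 and 126, 3.82-fold lower (2.97 to 4.99), the chemokine CCL2 at 27.1 and 101, 3.73-fold lower (2.83 to 5.03), and the cytokine IL11 at 20.7 and 62.0, 2.99-fold lower (2.18 to 4.23). SAA1, an acute-phase protein whose close copy SAA2 makes its count uncertain, was at 10.6 and 52.9, and the bile acid binding protein FABP6 at 40.3 and 169. Single cells held 23.5% of the CCL2 UMIs of the subset, 23.1% of its IL11, 20% of its SAA1, 14.5% of its INHBA and 14.0% of its FN1. With cells thinned and chosen anew the log2 ratios of IL11 and SAA1 were 0.027 and 0.43, and those of FN1, INHBA and CCL2 were -0.96, -1.09 and -0.75. In those 40 subset cells 50 CPM is about 3 UMIs, and lower counts were raised to 3, which lifts the subset. The positive values of IL11 and SAA1 thus do not settle a direction. FN1, INHBA and CCL2 stayed negative although raised counts work against that, but these values too rest on few UMIs. Without the highest doublet scores CCL2 was at -2.78, IL11 at -2.26 and SAA1 at -3.10, against -1.90, -1.58 and -2.32 with all cells.

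C15orf48, a small mitochondrial protein gene, was at 115 CPM in the subset and 417 in the rest, 3.62-fold lower (3.16 to 4.16), in 12.4% and 31.3% of thinned cells (33.1% and 46.3% unthinned). NCAPD2, a condensin subunit that compacts mitotic chromosomes, was at 59.4 and 195, 3.28-fold lower (2.72 to 4.00). AKR1B1 (aldose reductase) was 2.23-fold lower (2.05 to 2.42), S100A2 2.09-fold lower (1.86 to 2.35) and the calcium pump ATP2B1 2.77-fold lower (1.99 to 3.97). After that thinning the log2 ratio of ATP2B1 was 0.15, and those of NCAPD2 and S100A2 were -0.93 and -2.14. At so few UMIs, with counts under 3 raised to 3, the ATP2B1 value does not settle a direction. PLIN2, which coats lipid droplets, was at 120 and 234, short of 2-fold.

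**Figure D4:**
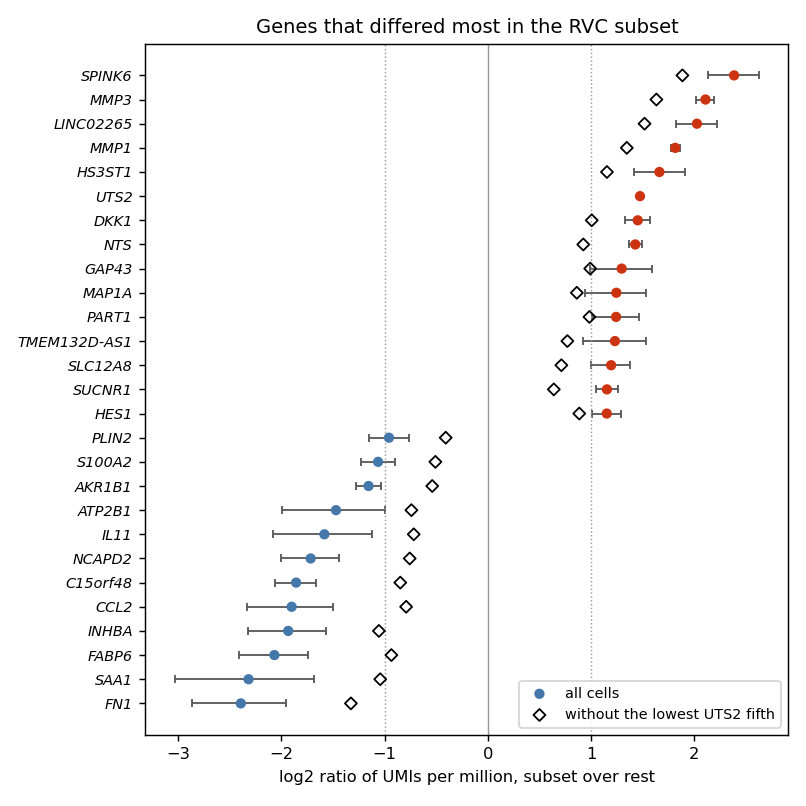
Log2 ratio of CPM, subset over rest (x axis), of the genes with the largest differences, with exact 95% intervals; filled points are all cells, open diamonds leave out the RVC cells in the lowest of 5 equal UTS2 groups, and dotted lines mark 2-fold. SPINK6 led the higher genes at 2.39 and FN1 the lower ones at -2.39, and every diamond shown lies closer to 0 than its point. SPINK6 reached 50 CPM in the subset alone and FN1 in the rest alone.

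Much of the contrast moved with UTS2. When all RVC cells were cut into 5 equal groups by UTS2, the subset made up 0.120, 1.26, 3.73, 6.56 and 8.85% of the cells from the lowest to the highest group. SERPINB3 went from 0.361 to 27.0 CPM over these groups and PDGFRA from 4.09 to 32.1. FN1 went from 248 to 11.4, C15orf48 from 826 to 110 and NCAPD2 from 381 to 52.7, with most of each drop between the lowest and the middle group. The lowest UTS2 group was not shallow, with a median of 4651 UMIs per cell against 3161 in the highest. Without that group 339 subset cells and 3976 cells of the rest remained, and 1850 genes were compared. Of these 6 were at least 2-fold higher (SPINK6, MMP3, LINC02265, MMP1, HS3ST1 and DKK1). Another 3 were at least 2-fold lower (INHBA, FN1 and, named after its value was seen, IGFBP5, an insulin-like growth factor binding protein). SPINK6 and HS3ST1 reached 50 CPM in the subset alone, and INHBA and FN1 in the rest alone. Then MMP3 was 3.10-fold higher (2.92 to 3.30), MMP1 2.54-fold higher (2.46 to 2.62) and FN1 2.51-fold lower (1.84 to 3.50), while NTS had a log2 ratio of 0.93 and C15orf48 of -0.85. IGFBP5 went the other way: it was not among the 2-fold lower genes with all cells and was 3.25-fold lower (2.78 to 3.82) here.

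**Figure D5:**
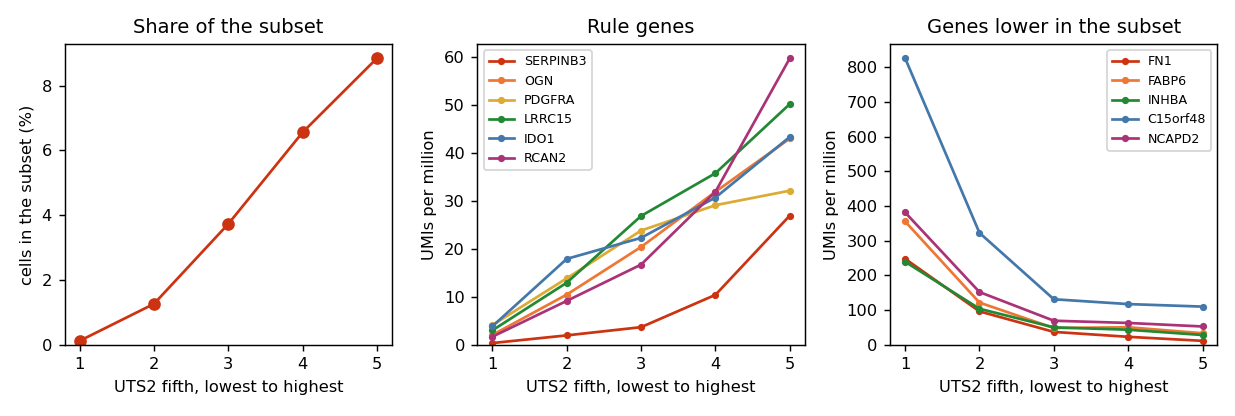
RVC cells in 5 equal groups by UTS2 (x axis, lowest to highest): the share of cells in the subset in % (left), the levels of the 6 defining genes in CPM (middle) and those of 5 genes lower in the subset (right), all axes from 0. The share climbed from 0.120 to 8.85%, while FN1 dropped from 248 to 11.4.

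The label of a stromal subset was read against 20 fibroblast genes. Their summed level was 530 CPM in the subset (498 to 564) and 600 in the rest (590 to 610), a ratio of 0.883 (0.827 to 0.942). Of the 5 that could be compared, 0 were at least 2-fold higher and 1, FN1, was lower, beside 1.85% and 0.598% of all 1840 genes, with a median log2 ratio of 0.05 beside 0.03 over all 1840 genes. FN1 passed the minimum through the rest alone. Without FN1, left out after its value was seen, the other 19 genes summed to 507 (476 to 540) and 481 (472 to 489), a ratio of 1.06 (0.987 to 1.13). COL3A1 was at 116 and 111, SPARC at 151 and 146, and COL5A2 at 53.1 and 37.5. DCN (decorin) was at 3.18 and 15.8, LUM (lumican) at 17.0 and 25.4, a ratio of 0.668 (0.453 to 0.954), THY1 had 0 UMIs in the subset and 1 in the rest, and COL1A2 had 2 and 3 UMIs. POSTN (periostin), below the minimum level, was at 33.4 and 14.6, a ratio of 2.30 (1.73 to 3.01). The 10 proteoglycan genes beside OGN summed to 24.9 and 46.1, a ratio of 0.541 (0.395 to 0.724) from 47 UMIs in the subset. The fibroblast sum was thus lower with FN1 and not without it, and the list showed no common rise. The cells are described by the 6 genes that chose them, with no cell type name.

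Of 12 leukocyte genes only CD68, a lysosomal protein, could be compared, at 200 and 143 CPM. Of 20 squamous and epithelial genes KRT8 was at 175 and 136 and KRT18 at 62.6 and 57.0. The 14 melanocyte and neural crest genes summed to 23.9 in the subset and 22.4 in the rest, so the pigment program that defines melanocytes was low in both, and 8 endothelial genes to 0.531 and 2.03, where the subset value is 1 UMI.

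Of 16 matrix metalloprotease genes 3 could be compared and 2 were higher, beside 1.85% of all 1840 genes, and these were MMP1 and MMP3, which were named from earlier results. The sum of the list was 3793 CPM in the subset against 1205 in the rest, with MMP2 at 198 in both. The median log2 ratio was 1.06 over the 13 genes with more than 3 UMIs, beside 0.22 over all genes at that cut. Counts under 3 UMIs were raised to 3, which lifts genes with few UMIs in the smaller class, the subset. That median thus does not show a common rise of the list. The inhibitors TIMP1 and TIMP2 were at 2312 against 1759 and at 98.2 against 70.7, both short of 2-fold. Of 22 genes listed for neuropeptides, their processing and receptors 3 of the 4 compared were higher, the peptide genes UTS2 and NTS, which were named from earlier results, and SUCNR1, whose ligand is no peptide, while SCG5, which assists peptide processing, was at 666 and 673. Of 12 genes that the study names for its RVC-rich cluster 4 of 7 compared were higher (UTS2, NTS, MMP1 and SUCNR1), but the study chose them on these libraries. In that list MALAT1 and NEAT1, RNAs of the nucleus, were at 1.40 and 1.47 times the rest.

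The 20 inflammatory genes summed to 1696 CPM in the subset and 1397 in the rest, a ratio of 1.21 (1.17 to 1.26). Their median log2 ratio was -0.49 over the 19 with more than 3 UMIs, beside 0.22 over all genes at that cut. Only 4 could be compared, and the 2 lower ones, CCL2 and IL11, passed the minimum through the rest alone, so their count is no measure of the list. CXCL8, a chemokine for neutrophils, was at 1424 against 884, and CXCL1 at 91.8 against 164. Of 16 TGF-beta targets INHBA, above the minimum in the rest alone, was lower, and TGFBI, a secreted adhesion protein, was at 1113 against 611. Of 14 AP-1 and immediate-early genes 1 of 5 compared was higher, beside 1.85% of all 1840 genes, FOS at 86.0 against 42.2, which passed the minimum through the subset alone, whereas FOSL1 was at 84.9 against 128 and EGR1 at 97.6 against 92.6. Of 17 ERK output genes 0 of 6 compared passed 2-fold in either direction, with DUSP6, a phosphatase of ERK, at 76.4 and 64.2.

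Cell cycle genes were slightly lower in sum. The 43 G1/S genes summed to 951 CPM in the subset and 1219 in the rest, a ratio of 0.780 (0.744 to 0.819), and 0 of 9 compared differed by 2-fold, beside 1.85% of all genes higher and 0.598% lower, with a median log2 ratio of -0.30. The 54 G2/M genes summed to 4184 and 4805, a ratio of 0.871 (0.851 to 0.891), and 1 of 21 compared, NCAPD2, was lower by 2-fold, with a median of -0.09. MKI67, the proliferation marker, was at 63.7 and 69.1 and TOP2A at 202 and 211, differences within counting error. Among 18 p53 targets and arrest genes 0 of 3 passed 2-fold, with the CDK inhibitors CDKN1A at 170 against 117 and CDKN2C at 84.4 against 46.8.

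Of 18 other serpins 0 of 3 compared passed 2-fold, beside 1.85% of all genes higher and 0.598% lower, with SERPINE2, an inhibitor of plasminogen activators, at 211 and 183. Under the minimum of 50 CPM, SERPINB4 had a ratio of 8.36 (4.88 to 14.1), and SERPINF1, the precursor of pigment epithelium-derived factor, of 3.21 (1.43 to 6.56) from 10 UMIs in the subset. SERPINB3 entered the choice of cells, so the SERPINB4 ratio may in part repeat that choice if reads of the pair were split. Of 20 kynurenine and interferon genes 0 of 4 passed, with KYNU, which acts downstream of IDO1, at 129 and 104 and B2M at 3190 and 3058. The 9 genes of PDGF signaling and the 12 of calcineurin summed to 40.3 against 42.7 and to 102 against 107, with 0 compared in each. Of 18 receptor and resistance genes AXL was at 62.1 and 80.6 and FGFR1 at 55.7 and 66.5.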

How the data were processed

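Libraries of 4 cultures (S, RV, RVC, RVT; 1 each) were made with the 10x Genomics v2 kit. The deposited tables hold raw UMI counts per gene and barcode, which the authors made with bcl2fastq 2.20.0.422 and Cell Ranger on GRCh38, as the submitters' processing notes list; the annotation is not given in the sources used here. Depth after filtering was 28829751 to 63582691 UMIs per library.

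Cells, classes, per-million levels and exact intervals were computed with Python 3.11.15 and SciPy 1.17.1, and coordinates were taken from GENCODE. Ratios of the classes used a floor of 3 UMIs, so a class with fewer UMIs was counted as 3, while levels and intervals used the counts as they were. With 1 library per condition no test across samples was run. The members and lists were chosen with earlier results of these data known. Named were the 6 defining genes, UTS2, NTS, MMP1 and MMP3, the 15 largest rises and 12 largest falls at 50 CPM or more, and listed genes. Doublets were scored with Scrublet in scanpy 1.11.5, whose own threshold marked 1 cell and had not worked, so none were removed except as an alternative. TMM and RLE factors came from edgeR 4.0.16. The steps were tested on simulated data. Neighbors (15) used 30 components of 2000 variable genes.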

Additional observations from a re-analysis of the deposited data

How the results depend on the processing

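With all cells the log2 ratios of UTS2, NTS, MMP1 and MMP3 were 1.47, 1.43, 1.82 and 2.11, those of the G1/S and G2/M sums were -0.36 and -0.20, and 34 genes were higher and 11 lower. The alternatives are given in the same order. At 1000 or more genes per cell the values were 1.68, 1.56, 1.95 and 2.06 for the genes, -0.34 and -0.19 for the sums, and 33 and 11 genes. With at most 10% mitochondrial UMIs the values were 1.48, 1.44, 1.84 and 2.12 for the genes, -0.36 and -0.20 for the sums, and 34 and 11 genes. Without the highest doublet scores the values were 1.61, 1.55, 1.92 and 2.204 for the genes, -0.37 and -0.23 for the sums, and 41 and 13 genes. With the subset at 2 or more UMIs the values were 1.32, 1.26, 1.55 and 1.79 for the genes, -0.28 and -0.14 for the sums, and 19 and 11 genes. With the subset at 5 or more UMIs the values were 1.81, 2.47, 2.65 and 2.69 for the genes, -0.46 and -0.40 for the sums, and 110 and 41 genes. With cells thinned to 1500 UMIs the values were 1.74, 1.84, 2.45 and 2.89 for the genes, -0.35 and -0.47 for the sums, and 563 and 44 genes. With the rest matched in depth the values were 1.84, 1.58, 2.01 and 1.97 for the genes, -0.35 and -0.23 for the sums, and 39 and 13 genes. With the rest at 0 to 2 UMIs the values were 1.07, 1.04, 1.36 and 1.59 for the genes, -0.30 and -0.18 for the sums, and 9 and 6 genes. With equal weight for every cell the values were 1.28, 1.18, 1.68 and 2.17 for the genes, -0.40 and -0.28 for the sums, and 32 and 11 genes. Without ribosomal and mitochondrial genes in the totals the values were 1.38, 1.33, 1.72 and 2.01 for the genes, -0.46 and -0.30 for the sums, and 36 and 24 genes of 2873 compared. With TMM scaling the values were 1.37, 1.32, 1.71 and 2.00 for the genes, -0.46 and -0.31 for the sums, and 21 and 13 genes. With RLE scaling the values were 1.37, 1.32, 1.71 and 2.00 for the genes, -0.46 and -0.30 for the sums, and 21 and 13 genes. Without the 10 subset cells highest in the 6 genes the values were 1.45, 1.37, 1.74 and 2.02 for the genes, -0.36 and -0.19 for the sums, and 33 and 11 genes. With the subset chosen without SERPINB3 the values were 1.35, 1.43, 1.86 and 1.97 for the genes, -0.30 and -0.16 for the sums, and 29 and 11 genes. Without the lowest UTS2 group, where UTS2 was not compared, the values were 0.93, 1.35 and 1.63 for the genes, -0.28 and -0.19 for the sums, and 6 and 3 genes. The removal of the lowest UTS2 group was chosen after seeing the data.

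The 6 ratios kept their direction under every alternative run. With a minimum of 20 CPM 67 genes were higher and 28 lower of 4051 compared. With no minimum beyond 3 UMIs the counts were 3399 and 311 of 15362. The subset was 5.07% of cells at 1000 or more genes, 11.8% at 2 or more UMIs of the 6 genes, 0.566% at 5 or more and 0.506% after thinning. Thinning left 40 subset cells of 1500 UMIs each, in which the minimum of 50 CPM is about 3 UMIs. A gene could thus be called higher on that few, and 2579 genes were compared against 1840 with all UMIs. There 563 genes were higher and the median gene was at 0.31 (log2). Since depth, cells chosen and genes compared changed together the cause was not tested. At that depth 4 named genes changed sign: SLC12A8 to -0.63, SAA1 to 0.43, IL11 to 0.027 and ATP2B1 to 0.15. Counts under 3 UMIs were raised to 3 there, which lifts the subset and so can bear on the positive values of SAA1, IL11 and ATP2B1. Raised counts could not make SLC12A8 negative. At so few UMIs in the subset none of the 4 signs settles a direction. The other genes recomputed kept their direction under the alternatives run for them, and the 6 defining genes and most listed genes were not recomputed. The share of subset cells among the neighbors of subset cells was 4.68% after thinning. A pseudocount of 1 CPM left the listed genes at 6 higher and 5 lower. No paired analysis was possible because each condition had 1 library. Leaving out a replicate was not possible for the same reason. Genes under 50 CPM in both classes rest on few UMIs in the subset and were not counted among the genes compared.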

Other observations

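In RVT 116 cells had at least 1 UMI of the 6 genes, against 9197 with none, a looser cut that was chosen after seeing the data. These RVT cells held CCL2 at 42.2 CPM against 6.54, 6.45-fold higher (3.68 to 10.6), and C15orf48 at 22.3 against 7.25, 3.08-fold higher (1.39 to 5.96). These values rest on 17 CCL2 and 9 C15orf48 UMIs, and the genes were picked after their values were seen. INHBA was at 64.5 against 41.4, a ratio of 1.56 (1.01 to 2.29), and the intervals of the other genes read held 1. At the same cut the 2780 RVC cells had ratios to their rest of 0.380 (0.345 to 0.418) for CCL2 and 0.360 (0.343 to 0.377) for C15orf48. INHBA was at 0.410 (0.377 to 0.445) there, and the difference between the libraries was not tested. The cut did not choose like cells. In RVT it rested on IDO1 (45 UMIs), PDGFRA (40) and SERPINB3 (29), with 4 of OGN, 3 of RCAN2 and 1 of LRRC15. In RVC LRRC15 had 904, RCAN2 812, OGN 754, IDO1 834, PDGFRA 738 and SERPINB3 286. UTS2 had 0 UMIs in the 116 cells and 47 in the others, and MMP1 had 1 and 51, so UTS2 and MMP1 could not be compared there. FN1 was at 24.8 and 30.04, a ratio of 0.826 (0.395 to 1.53), and DKK1 at 32.3 and 32.4.

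Of 12 heat shock genes 0 of 10 compared passed 2-fold between the subset and the rest of RVC, beside 1.85% of all genes higher and 0.598% lower, and their sum was at 5190 and 5803 CPM, a ratio of 0.894 (0.876 to 0.913), with HSP90AA1 at 883 and 1283 and HSPB1 at 268 and 188. The 14 genes of endoplasmic reticulum stress summed to 578 and 516, the 15 of hypoxia and glycolysis to 12599 and 10804, and the 12 of sterol and lipid synthesis to 396 and 369. GAPDH, a glycolytic enzyme, was at 9370 and 7622. The 9 transcription factors of epithelial-mesenchymal transition summed to 94.5 and 96.0, the 10 pluripotency genes to 13.8 and 10.3, and the 12 bone and muscle genes to 46.2 and 48.7, with 0 compared in each.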
